A study of Mus musculus with 8 samples.

Results

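The ATP-binding cassette (ABC) transporters were followed across 3 populations of mouse blood stem and progenitor cells. The members were 43 listed ABC genes, each taken from the probe set annotated with that 1 gene symbol. All 43 matched, each through a single probe set, out of 22180 genes named on the array. Of the 43, 38 had a mean signal at or above a log2 value of 3.88, the 25th percentile of all probe sets, and entered the tests with 17576 genes in all. The 5 below that level were Abca6, Abca8a, Abca9, Abca13 and Abcb11, and they are given as values only. The member just inside was Abcg8, with a mean of 3.92, and the nearest outside was Abca9, with 3.78.

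The cells came from bone marrow of C57/Bl6 mice labelled as 8 weeks old, and RNA of each sorted sample was amplified and read on 1 array. The long-term stem cell gate (LT-HSC) took cells with CD150 but neither CD48 nor CD34, and gave 2 arrays, numbered 1 and 3. The short-term gate (ST-HSC) differed from it only in that CD34 was present, and gave 3 arrays. The gate for multipotent progenitors (MPP) took cells with CD48 and CD34 but without CD150, and also gave 3 arrays. All 3 gates were lineage-negative, Sca1-positive and Kit-positive. The sample descriptions state no treatment, whereas the protocol shared by all samples speaks of a 2-hour DMSO exposure, 1 year in primary recipients and 3 months in secondary recipients, and the labels do not settle which holds. Nothing in the labels ties arrays to separate animals, so each p-value below rests on sample-to-sample spread that could be technical only. All levels are log2 signals after robust multi-array averaging (RMA), and a difference of 1 is a 2-fold change. Signals of different probe sets do not share a scale, so levels are compared between arrays and not between genes; signal was used across probe sets only for the filter and to choose which gene of a list to show.

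ABC proteins use ATP to move lipids, sterols, peptides, drugs and metabolites across membranes, and a few act on ribosomes without crossing any membrane. Blood stem cells are known for pumping out fluorescent dyes. Cells that exclude Hoechst dye form the side population, which is rich in stem cells, and Abcg2 is the pump chiefly held to account for it. The P-glycoproteins encoded by Abcb1a and Abcb1b expel rhodamine and many drugs.

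The sorted identities could be checked only in part. Slamf1, which encodes CD150, separated MPP (4.77 to 5.46) from LT-HSC (7.77 and 7.78) and ST-HSC (7.25 to 7.46). Cd34 was 8.50 and 10.20 in the LT-HSC arrays, 9.55 to 10.15 in ST-HSC and 10.85 to 11.00 in MPP, so LT-HSC replicate 3, from the CD34-negative gate, read above every ST-HSC array. The gene for Sca1 was not analysed here. The first LT-HSC and the first ST-HSC array stood apart: their median correlations to the rest were 0.956 and 0.968, against 0.976 to 0.985 for the 6 others. Both also had the narrowest interquartile ranges, 2.49 and 2.73.

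No ABC gene passed the threshold in any comparison. By limma with Benjamini-Hochberg adjustment, 0 of 38 members were called higher and 0 lower in LT-HSC than in ST-HSC, where 0.0853% of all tested genes were called higher and 0.848% lower. The same counts of 0 held for LT-HSC against MPP (0.119% of all genes higher and 0.00569% lower) and for ST-HSC against MPP (0.125% higher and 0.0683% lower). The F test over the 3 populations called 0 of 38, against 0.905% of all genes. With background shares this low, a list of 38 genes would hold few or no calls at the background rate.

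At an unadjusted limma p under 0.05, 2 of 38 members differed between LT-HSC and ST-HSC, a share of 5.26% beside 11.1% of all genes. Between LT-HSC and MPP they were 3 of 38, or 7.89% beside 10.6%, and between ST-HSC and MPP 1 of 38, or 2.63% beside 6.89%. Groups without overlap numbered 5 of 38 members in LT-HSC against ST-HSC and again in LT-HSC against MPP, 13.2% in each, beside 23.3% and 24.7% of all genes. In ST-HSC against MPP there were 0 of 38 beside 14.2%. These shares lay below those of all genes in each comparison, but each rests on at most 5 members and the comparisons share arrays. Whether the members differ from all genes in this was not tested.

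The median differences of the members were -0.05 for LT-HSC minus ST-HSC, 0.03 for LT-HSC minus MPP and 0.03 for ST-HSC minus MPP, beside -0.02, -0.06 and -0.01 over all tested genes. Positive differences were found for 14, 21 and 21 of 38 members in these comparisons. Centring every array on its median lowered the median of all genes by over 0.1, to -0.13 for LT-HSC minus ST-HSC and -0.18 for LT-HSC minus MPP, and then 10 and 12 members were positive. The 95% limma interval lay within 2-fold in both directions for 33 of 38 members in LT-HSC minus ST-HSC, 33 in LT-HSC minus MPP and 37 in ST-HSC minus MPP. The members whose interval reached past 2-fold against ST-HSC were Abcb1b, Abcb4, Abcd3, Abcf2 and Abcg3 for LT-HSC. Against MPP they were Abcb1a, Abcb1b, Abcd3, Abcg1 and Abcg3 for LT-HSC, and Abcb4 for ST-HSC.

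**Figure D1:**
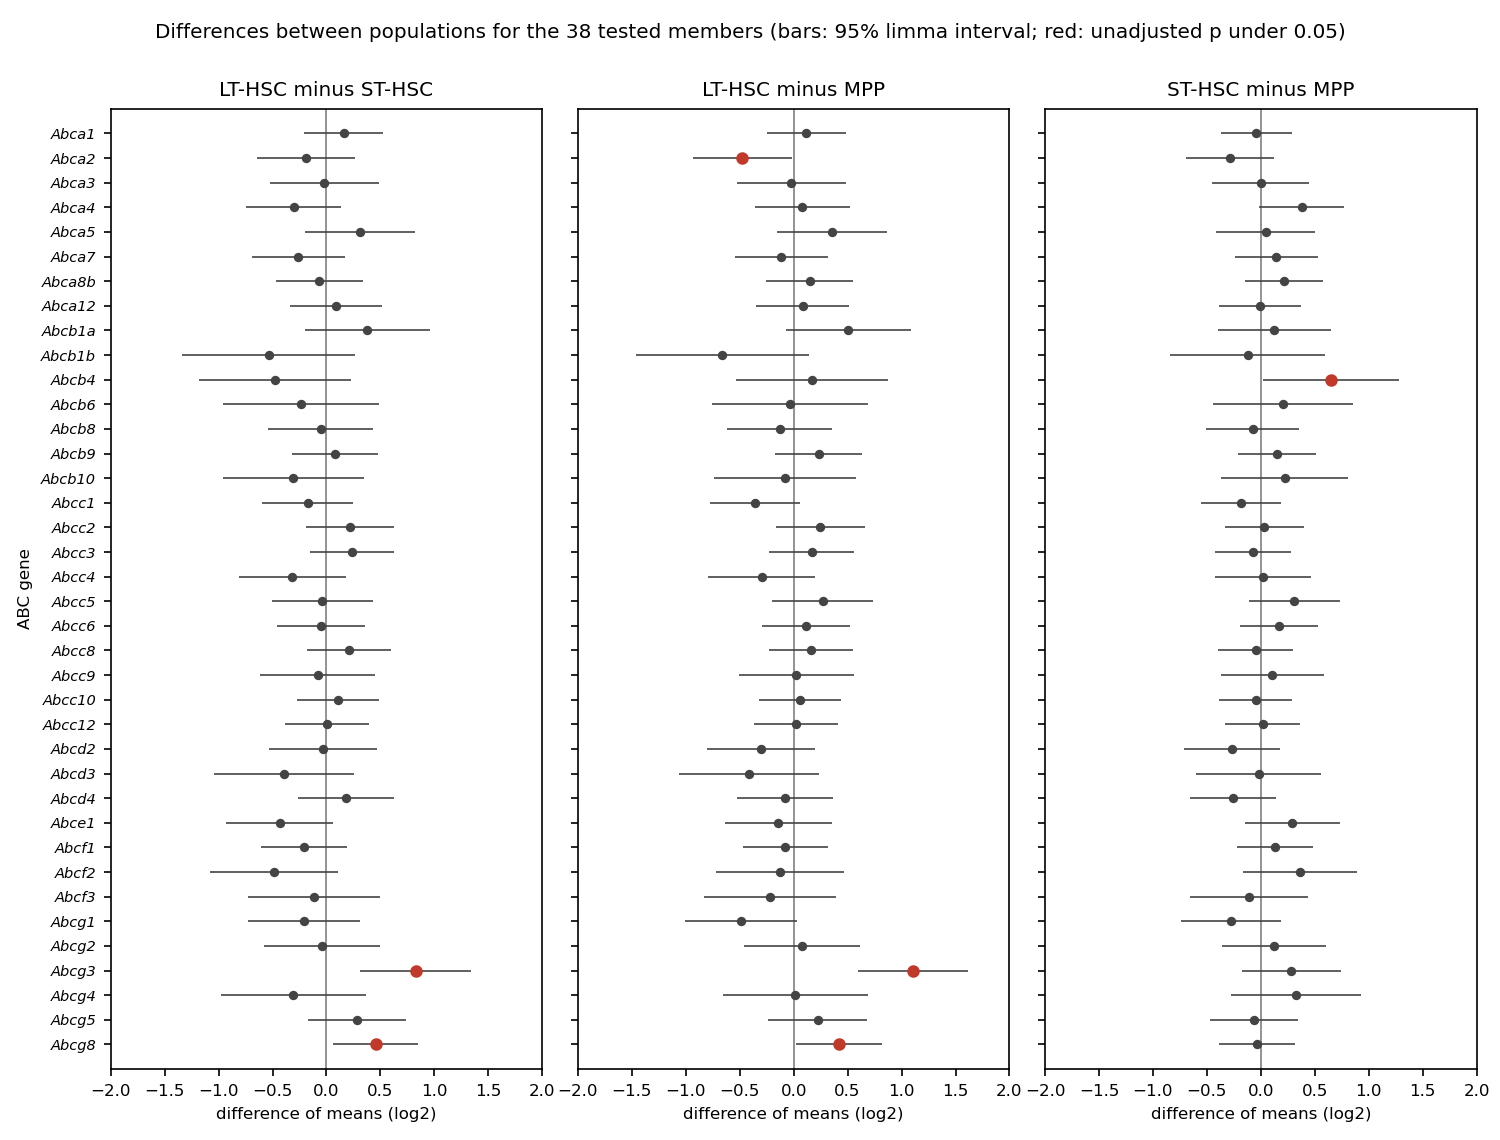
Difference of population means (x axis, log2 units) for each of the 38 tested ABC genes (y axis), with 1 panel per comparison; points are limma estimates, bars are 95% intervals and red points have an unadjusted p under 0.05. Abcg3 has the highest estimate in both comparisons of LT-HSC, at 0.83 and 1.11, and most intervals cross 0.

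Among the pumps tied to dye efflux, Abcg2 had population means close together, but its 2 LT-HSC arrays were far apart. It read 7.22 and 8.08 in LT-HSC replicates 1 and 3, 7.49, 7.77 and 7.81 in ST-HSC replicates 1, 2 and 3, and 7.71, 7.41 and 7.59 in the MPP arrays. Both extremes of Abcg2 fell in LT-HSC, whose 2 arrays enclosed every ST-HSC and MPP array. LT-HSC averaged 7.65 ± 0.61 (SD, n = 2), and ST-HSC 7.69 ± 0.17 and MPP 7.57 ± 0.15 (SD, n = 3 each). LT-HSC minus MPP was 0.08 (95% interval -0.46 to 0.62, limma adjusted p = 0.906), an interval that reaches 1.54-fold. LT-HSC minus ST-HSC was -0.04 (-0.58 to 0.50, adjusted p = 0.969) and ST-HSC minus MPP was 0.12 (-0.36 to 0.60, adjusted p = 0.999). Tested alone over all 560 ways to assign the array labels, the F statistic of Abcg2 gave an exact permutation p of 0.886, where the smallest possible is 0.00357.

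The sign of the Abcg2 differences changed with several settings, and most with the choice of LT-HSC array. Without LT-HSC replicate 1, LT-HSC minus ST-HSC was 0.39, and without LT-HSC replicate 3 it was -0.47. LT-HSC minus MPP was 0.51 without replicate 1 and -0.35 without replicate 3, and none of these passed. Omitting the first array of every population gave 0.58 for it, with an unadjusted limma p of 0.0139 and an adjusted p of 0.453. Without ST-HSC replicate 3 the LT-HSC minus ST-HSC difference was 0.02, and without MPP replicate 2 the LT-HSC minus MPP difference was -0.00047. Over all alternatives tried, the adjusted p ran from 0.188 to 0.998 for LT-HSC minus ST-HSC and from 0.281 to 0.999 for LT-HSC minus MPP.

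Abcb1a and Abcb1b, the rodent pair of P-glycoprotein genes, did not run in parallel. Abcb1a read 6.73 and 6.22 in LT-HSC replicates 1 and 3, 6.11, 6.40 and 5.78 in ST-HSC replicates 1, 2 and 3, and 5.57, 6.02 and 6.32 in MPP replicates 1, 2 and 3. Its highest array was LT-HSC replicate 1, and the 3 populations overlapped. The means were 6.48 ± 0.36 (SD, n = 2), 6.10 ± 0.31 and 5.97 ± 0.38 (SD, n = 3 each), and LT-HSC minus MPP was 0.51 (SE 0.26, limma adjusted p = 0.518). LT-HSC minus ST-HSC was 0.38 (SE 0.26, adjusted p = 0.631) and ST-HSC minus MPP 0.13 (SE 0.24, adjusted p = 0.999).

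For Abcb1b the values were 5.98 and 7.51 in LT-HSC, 6.89, 7.53 and 7.41 in ST-HSC, and 7.30, 7.40 and 7.50 in MPP. LT-HSC replicate 1 was thus the lowest array for Abcb1b and the highest for Abcb1a, while LT-HSC replicate 3 lay among the ST-HSC and MPP arrays for both genes. The 2 LT-HSC arrays had an SD of 1.08, the highest among the members in LT-HSC. LT-HSC minus MPP was -0.66 (SE 0.36, limma adjusted p = 0.532) and LT-HSC minus ST-HSC was -0.54 (SE 0.36, adjusted p = 0.62).

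With LT-HSC represented by replicate 1 alone, the Abcb1b difference was -1.30 against ST-HSC and -1.42 against MPP. The spread of LT-HSC cannot be estimated from 1 array. Over the alternatives that kept both LT-HSC arrays, the limma adjusted p ran from 0.415 to 0.893 against ST-HSC. Against MPP it ran from 0.323 to 0.828. Without replicate 1 the differences were 0.23 and 0.10, with the opposite sign. The Abcb1b values that set LT-HSC apart are therefore those of 1 array, which also stood apart over all probe sets. ST-HSC minus MPP was -0.12 (SE 0.32, adjusted p = 0.999).

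Abcb1a, Abcb1b and Abcb4 follow each other as neighbours on chromosome 5 of the RefSeq assembly GRCm38.p6. The start regions of the first 2 are shown because the paired genes gave opposite readings on the same array. Each window runs from 250 bases before the start to 50 after it and is written on the gene's plus strand, at chr5:8566841-8567140 for Abcb1a and chr5:8797897-8798196 for Abcb1b. Capitals mark the CCAAT box and the GC box, GGGCGG, on either strand.
Abcb1a: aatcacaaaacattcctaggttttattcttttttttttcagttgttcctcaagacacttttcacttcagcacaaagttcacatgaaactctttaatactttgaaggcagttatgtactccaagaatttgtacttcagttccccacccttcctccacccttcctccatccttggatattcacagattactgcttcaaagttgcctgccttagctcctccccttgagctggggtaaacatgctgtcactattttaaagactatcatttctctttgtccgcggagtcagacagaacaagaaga
Abcb1b: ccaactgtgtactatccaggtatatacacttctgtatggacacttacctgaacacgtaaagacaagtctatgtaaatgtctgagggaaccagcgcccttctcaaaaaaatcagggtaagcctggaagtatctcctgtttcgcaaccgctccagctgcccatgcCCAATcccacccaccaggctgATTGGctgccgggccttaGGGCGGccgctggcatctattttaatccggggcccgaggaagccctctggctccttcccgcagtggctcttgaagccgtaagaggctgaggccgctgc
The Abcb1b window held 2 CCAAT boxes, of opposite strand, and 1 GC box beginning at bases 164, 185 and 203 of the window, all before the start, and the Abcb1a window held none of these letters. In a global alignment the windows were identical in 47.8% of columns, and their GC contents were 40.3% for Abcb1a and 55.0% for Abcb1b. The coding parts of these genes are close copies, and probe sequences, which would show how well the array keeps them apart, were not analysed here.

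Abcc1, a pump for glutathione conjugates and leukotrienes, had the 7.32 and 7.66 of LT-HSC below the 7.80, 7.80 and 7.95 of MPP, without overlap. The ST-HSC arrays read 7.43, 7.80 and 7.77 and overlapped both. LT-HSC minus MPP was -0.36 (SE 0.19, limma adjusted p = 0.523), LT-HSC minus ST-HSC was -0.18 (SE 0.19, adjusted p = 0.765) and ST-HSC minus MPP was -0.18 (SE 0.17, adjusted p = 0.999). Of the 4 efflux pumps, then, LT-HSC had the highest mean for Abcb1a, the lowest for Abcb1b and Abcc1, and the middle one for Abcg2.

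**Figure D2:**
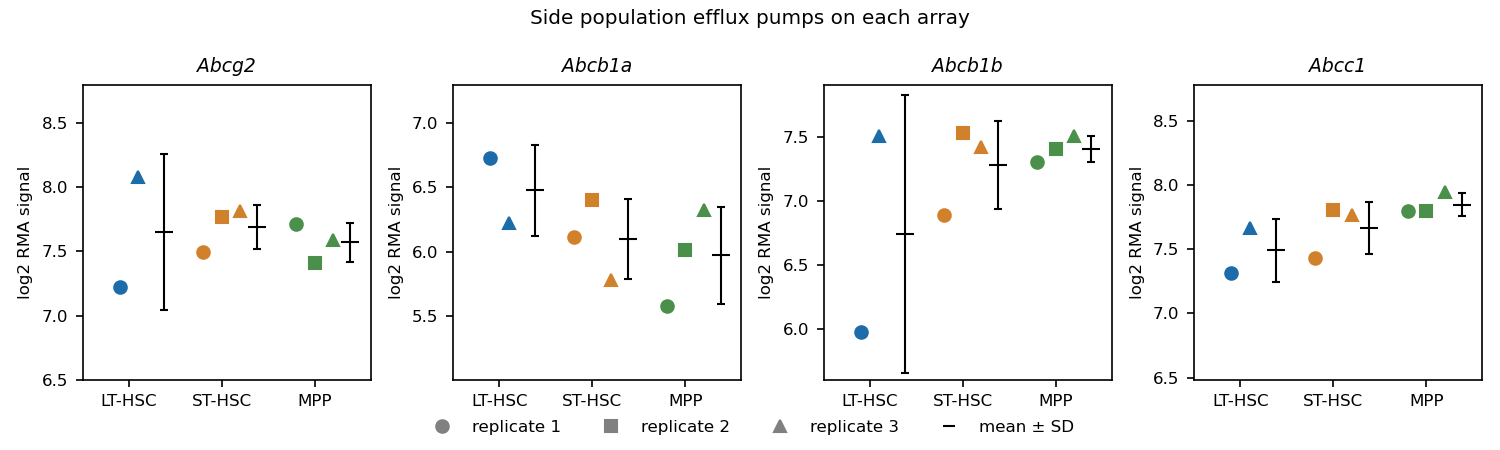
Log2 RMA signal (y axis) of 4 efflux pump genes on each array, by population (x axis); symbols give the replicate number, and the black marks are mean ± SD (n = 2 for LT-HSC, n = 3 for ST-HSC and MPP). The LT-HSC arrays of Abcg2 enclose all others, and the low Abcb1b point at 5.98 is LT-HSC replicate 1.

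Abcg3 was the member with the largest difference between populations. This gene belongs to the same subfamily as Abcg2. Its probe set, 17450414, read 7.47 and 7.49 in LT-HSC replicates 1 and 3, 6.19, 6.90 and 6.87 in ST-HSC replicates 1, 2 and 3, and 6.55, 6.17 and 6.40 in MPP replicates 1, 2 and 3. Both LT-HSC arrays lay above every other array, whereas ST-HSC and MPP overlapped. The means were 7.48 ± 0.01 (SD, n = 2), 6.66 ± 0.40 and 6.37 ± 0.20 (SD, n = 3 each).

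Its LT-HSC minus MPP difference was 1.11 (SE 0.23, 95% interval 0.59 to 1.62), or 2.15-fold, with an unadjusted p of 0.000614 and a limma adjusted p of 0.153. LT-HSC minus ST-HSC was 0.83 (SE 0.23, 0.31 to 1.34), or 1.77-fold, with an unadjusted p of 0.00468 and an adjusted p of 0.183. ST-HSC minus MPP was 0.28 (SE 0.21, adjusted p = 0.985). By the F test the adjusted p of Abcg3 was 0.111, and its F test p ranked 309th among the 17576 genes.

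The Abcg3 difference kept its sign in all alternatives tried, from 0.98 to 1.26 for LT-HSC minus MPP and from 0.59 to 0.98 for LT-HSC minus ST-HSC. Without ST-HSC replicate 1, one of the arrays that stood apart, LT-HSC minus MPP passed (limma adjusted p = 0.0426), as did the F test (adjusted p = 0.045). The omitted array lies in neither LT-HSC nor MPP, so that difference stayed at 1.11 and only the estimate of the spread changed. Fitted on only the 2 populations compared, LT-HSC minus MPP did not pass (limma adjusted p = 0.13). With the replicate number as a block, LT-HSC minus MPP was 1.12 (limma adjusted p = 0.0457) and the F test also passed (adjusted p = 0.0448). The block raised the count of all genes called in LT-HSC minus MPP from 22 to 157. Deviations of same-numbered LT-HSC and MPP arrays correlated at -0.16 and 0.10, and those of LT-HSC and ST-HSC arrays at 0.54 and 0.47. With only 2 LT-HSC arrays their deviations mirror each other, so the 2 values of each pair are not independent. A pairing of LT-HSC with MPP by number is thus not established. After quantile normalization the F test passed (adjusted p = 0.0473) and LT-HSC minus MPP did not (adjusted p = 0.0599). Without both arrays that stood apart, LT-HSC minus MPP was 1.11 (adjusted p = 0.1). Over all alternatives the adjusted p of LT-HSC minus MPP ran from 0.0426 to 0.456. Unlike in Abcb1b, the 2 LT-HSC arrays lay close together.

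On chromosome 5 of GRCm38.p6 Abcg3 sits between Zfp951 and Gbp8, a gene of the interferon-induced guanylate-binding proteins. Its start region is shown because Abcg3 carries the largest difference of the family. The window lies on the minus strand at chr5:104982668-104982967, and capitals mark the GC box GGGCGG, here read on the opposite strand.
Abcg3: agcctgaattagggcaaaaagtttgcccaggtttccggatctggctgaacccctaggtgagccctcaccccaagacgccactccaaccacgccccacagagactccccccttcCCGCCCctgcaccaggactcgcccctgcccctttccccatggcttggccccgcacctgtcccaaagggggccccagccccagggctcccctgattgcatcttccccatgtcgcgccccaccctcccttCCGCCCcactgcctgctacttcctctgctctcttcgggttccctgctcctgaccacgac
It held 2 GC boxes, beginning at bases 114 and 242 of the window, with a GC content of 65.3% and 11 CG dinucleotides. No CCAAT box, TATA box, GATA motif, RUNX motif or interferon-stimulated element was found in these letters.

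Abcg5 and Abcg8 encode the partner subunits of a sterol exporter of liver and gut, and both had their highest signal on LT-HSC replicate 1. Abcg8 read 4.41 and 4.10 in LT-HSC replicates 1 and 3, 3.96, 3.82 and 3.61 in ST-HSC, and 3.77, 3.85 and 3.88 in MPP. LT-HSC did not overlap ST-HSC or MPP in Abcg8, at signals near the 3.88 filter. LT-HSC minus ST-HSC was 0.46 (SE 0.18, unadjusted p = 0.0282, limma adjusted p = 0.382), and LT-HSC minus MPP was 0.42 (SE 0.18, unadjusted p = 0.0403, adjusted p = 0.458).

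For Abcg5 the arrays gave 4.73 and 4.07 in LT-HSC, a mean of 4.12 ± 0.11 (SD, n = 3) in ST-HSC, and 4.10, 4.25 and 4.18 in MPP. LT-HSC replicate 3 of Abcg5 lay among the ST-HSC and MPP arrays, so only replicate 1 was high. The differences were 0.28 for LT-HSC minus ST-HSC (limma adjusted p = 0.648) and 0.22 for LT-HSC minus MPP (adjusted p = 0.674). Among members below the filter, Abcb11, the bile salt export pump of the liver, was also highest on LT-HSC replicate 1, at 4.19 there and 3.15 to 3.61 on the other 7 arrays.

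The RefSeq starts of these 2 genes lie head to head, 110 bases apart, and their 300-base windows overlap by 209 bases. The Abcg8 window, which holds both starts, is shown as the shared region of 2 neighbours with the same highest array, LT-HSC replicate 1. It lies on the plus strand at chr17:84682871-84683170 of GRCm38.p6. Capitals mark the CCAAT box, the TATA box with the letters TATAAA and the GATA motif with the letters GATAAG, each on either strand.
Abcg8: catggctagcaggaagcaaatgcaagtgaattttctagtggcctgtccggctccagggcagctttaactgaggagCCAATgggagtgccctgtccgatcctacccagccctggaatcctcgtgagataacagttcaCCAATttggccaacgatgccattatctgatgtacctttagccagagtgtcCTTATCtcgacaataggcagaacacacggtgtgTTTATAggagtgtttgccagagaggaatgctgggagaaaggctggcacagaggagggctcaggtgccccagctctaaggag
The TATA box and the GATA motif of this stretch lie in the direction of Abcg5 and both CCAAT boxes in that of Abcg8, and a second start of Abcg8 in the table lies outside it.

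The remaining G members export cholesterol. Abcg1, which loads sterols onto lipoproteins in macrophages, read 6.99 and 7.46 in LT-HSC, averaged 7.44 ± 0.38 (SD, n = 3) in ST-HSC, and read 7.64, 7.70 and 7.80 in MPP. Both LT-HSC arrays lay below all MPP arrays, with a difference of -0.49 (SE 0.24, limma adjusted p = 0.501), and the replicate 1 arrays of LT-HSC and ST-HSC were the lowest of all. Abcg4, its close relative in brain, ranged from 5.50 to 6.74, with the top value on ST-HSC replicate 1 and means of 5.75 in LT-HSC, 6.06 in ST-HSC and 5.74 in MPP.

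In the A subfamily of lipid transporters, Abca2, known from lysosomes of brain cells, had the only unadjusted p under 0.05. It read 6.75 and 7.23 in LT-HSC replicates 1 and 3, 7.08, 7.09 and 7.36 in ST-HSC, and 7.65, 7.25 and 7.49 in MPP. Both LT-HSC arrays lay below all MPP arrays, although LT-HSC replicate 3 missed the lowest MPP array by little. LT-HSC minus MPP was -0.47 (SE 0.21, unadjusted p = 0.0427, limma adjusted p = 0.459).

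Abca1, which hands cholesterol to apolipoprotein A-I, was 6.10 ± 0.04 (SD, n = 2) in LT-HSC, 5.94 ± 0.11 in ST-HSC and 5.99 ± 0.12 in MPP (SD, n = 3 each). Its LT-HSC arrays exceeded those of ST-HSC without overlap, at a difference of 0.16 (limma adjusted p = 0.755). Abca7, a phospholipid transporter linked to phagocytosis, ranged from 5.35 to 5.96 over the arrays. The surfactant lipid transporter Abca3 ranged from 6.09 to 6.67, with means of 6.33 in LT-HSC, 6.36 in ST-HSC and 6.36 in MPP.

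Abca4, the retinal flippase, was 4.66 in LT-HSC, 4.96 in ST-HSC and 4.58 in MPP on average, with its widest difference in ST-HSC minus MPP (0.38, limma adjusted p = 0.752). Abca12, which supplies lipids to the skin barrier, stayed between 3.90 and 4.31. Of the members, 5 lie side by side on chromosome 11 of GRCm38.p6, in the order Abca8b, Abca8a, Abca9, Abca6 and Abca5. Among them the lysosomal Abca5 averaged 5.67 in LT-HSC, 5.36 in ST-HSC and 5.31 in MPP (LT-HSC minus MPP 0.36, adjusted p = 0.574), and Abca8b ranged from 4.13 to 4.67. The other three were below the filter, with ranges of 3.20 to 3.47 for Abca8a, 3.63 to 3.96 for Abca9 and 3.44 to 3.83 for Abca6. Abca13 ranged from 3.40 to 4.09, with its top value on ST-HSC replicate 1.

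In the B subfamily, Abcb4, which flips phosphatidylcholine into bile, was the member nearest to a difference between ST-HSC and MPP. It read 6.47 and 6.16 in LT-HSC replicates 1 and 3, 7.43, 6.53 and 6.43 in ST-HSC replicates 1, 2 and 3, and 6.63, 5.81 and 5.99 in MPP replicates 1, 2 and 3. In each population replicate 1 was the highest array, and ST-HSC overlapped MPP. ST-HSC minus MPP was 0.65 (SE 0.29, unadjusted p = 0.0446, limma adjusted p = 0.703), and without ST-HSC replicate 1 it was 0.33. Between arrays of the same number the ST-HSC minus MPP differences were 0.79, 0.72 and 0.44, all of one sign. A pairing of ST-HSC with MPP by number is not given by the labels and is not established by the data. With the replicate number as a block the unadjusted p was 0.00268 and the limma adjusted p 0.105, and with all arrays numbered 1 omitted the difference was 0.58 (unadjusted p = 0.00565, adjusted p = 0.186). LT-HSC minus ST-HSC was -0.48 (SE 0.32, adjusted p = 0.614).

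**Figure D3:**
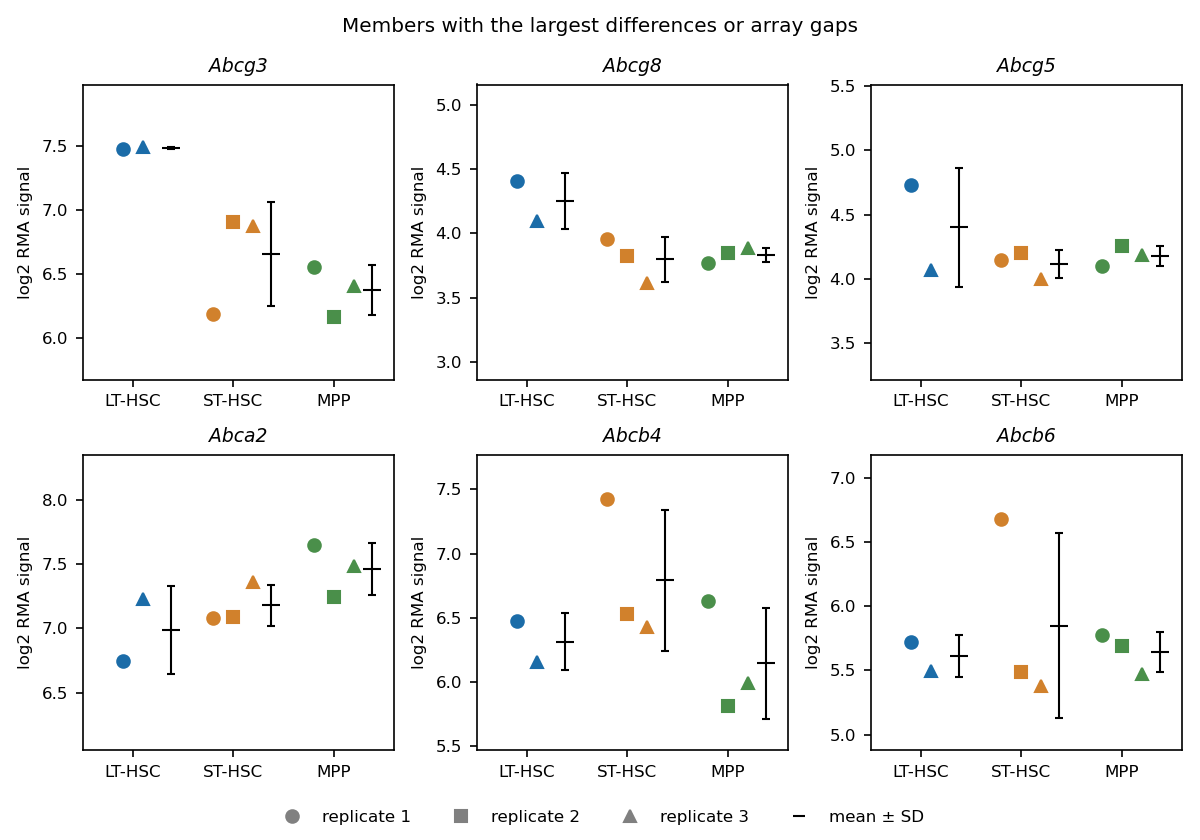
Log2 RMA signal (y axis) of 6 further ABC genes on each array, by population (x axis); symbols give the replicate number, and the black marks are mean ± SD (n = 2 for LT-HSC, n = 3 for ST-HSC and MPP). Both LT-HSC arrays of Abcg3 lie above all others, and ST-HSC replicate 1 is the top array for Abcb4 and Abcb6.

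The mitochondrial and lysosomal B members showed no difference that passed. Abcb6, a porphyrin transporter, was 5.38 to 5.77 on 7 arrays and 6.68 on ST-HSC replicate 1, which gave ST-HSC an SD of 0.72. Abcb10, which supports heme synthesis in red cell precursors, read 6.45 and 5.64 in LT-HSC, 6.75, 5.95 and 6.36 in ST-HSC, and 6.50, 5.94 and 5.94 in MPP, with replicate 1 on top in each population. Abcb8, a mitochondrial iron exporter, averaged 5.85 in LT-HSC, 5.91 in ST-HSC and 5.98 in MPP. Abcb9, a lysosomal peptide pump, averaged 5.35 in LT-HSC, 5.27 in ST-HSC and 5.12 in MPP (LT-HSC minus MPP 0.23, limma adjusted p = 0.625).

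The C subfamily holds the multidrug resistance proteins, and all 10 members were tested. Abcc4, a pump for cyclic nucleotides and prostaglandins, ranged from 6.55 on LT-HSC replicate 1 to 7.31 on MPP replicate 3, with LT-HSC minus ST-HSC at -0.32 (limma adjusted p = 0.64). Abcc5, which also carries nucleotides, averaged 6.13 in LT-HSC, 6.17 in ST-HSC and 5.86 in MPP, where replicate 2 alone was low at 5.44. The organic anion pumps Abcc2 and Abcc3 had LT-HSC minus MPP differences of 0.25 and 0.17 (limma adjusted p = 0.615 and 0.719).

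Abcc8 and Abcc9, the sulfonylurea receptors of potassium channels, ranged from 4.23 to 4.64 and from 4.21 to 4.93. Abcc8 had LT-HSC arrays (4.64 and 4.52) above all ST-HSC arrays (4.26 to 4.51), with little room at the nearest pair. Abcc6, tied to ectopic calcification, ranged from 4.93 to 5.42, Abcc10 from 5.26 to 5.55 and Abcc12 from 4.06 to 4.44. Over the subfamily the differences lay between -0.36 and 0.27 in LT-HSC minus MPP and between -0.18 and 0.31 in ST-HSC minus MPP.

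Of the D subfamily, Abcd3 brings fatty acids into peroxisomes. It read 6.39 and 7.31 in LT-HSC replicates 1 and 3, 7.25, 7.07 and 7.40 in ST-HSC, and 7.55, 6.79 and 7.44 in MPP. LT-HSC replicate 1 was the lowest array, and replicate 3 lay within the range of the others. LT-HSC minus MPP was -0.41 (SE 0.29, limma adjusted p = 0.598). Abcd2, also peroxisomal, averaged 4.45 in LT-HSC, 4.49 in ST-HSC and 4.75 in MPP, and Abcd4, which moves cobalamin out of lysosomes, averaged 5.58, 5.40 and 5.66.

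The E and F members lack membrane spans and work in translation. Abce1, which splits ribosomes for recycling, read 8.53 and 8.77 in LT-HSC, 9.27, 8.94 and 9.04 in ST-HSC, and 9.11, 8.40 and 8.86 in MPP. Its LT-HSC arrays lay below all ST-HSC arrays, with a difference of -0.43 (SE 0.22, limma adjusted p = 0.509), while the MPP arrays spanned both. Abcf1, a translation initiation partner of eIF2, read 7.66 and 8.05 in LT-HSC, 7.99, 8.14 and 8.07 in ST-HSC, and 8.00, 7.80 and 8.00 in MPP, with overlap throughout. Abcf2 averaged 7.37 in LT-HSC, 7.86 in ST-HSC and 7.50 in MPP, and Abcf3 averaged 6.84, 6.95 and 7.06.

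All 4 E and F genes had negative LT-HSC minus ST-HSC differences, from -0.12 to -0.49, and none passed. Without LT-HSC replicate 1, an array that stood apart, Abcf3 turned to 0.27 and the others were -0.32 for Abce1, -0.01 for Abcf1 and -0.12 for Abcf2. Cell cycle genes were also low in LT-HSC and high in ST-HSC: relative to all arrays, the mean of the 31 tested ones was -0.98 and -0.66 in LT-HSC, 0.57 to 0.75 in ST-HSC and -0.48 to 0.22 in MPP, and 24 of 31 were called lower in LT-HSC than in ST-HSC. With both arrays that stood apart omitted, limma called 0 of all genes in that comparison, with 1348 at an unadjusted p under 0.05. Whether the cell cycle had a part in the E and F values was not tested.

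Over the whole family, single arrays held many of the highest and lowest values. Of the 38 tested members, 11 had their highest value on ST-HSC replicate 1, a share of 28.9% beside 12.98% of all tested genes, and 8 on LT-HSC replicate 1, 21.1% beside 21.0%. On LT-HSC replicate 1 also lay the lowest value of 12, 31.6% beside 32.5% of all genes. The median absolute difference between population means was 0.21 for LT-HSC minus ST-HSC, 0.15 for LT-HSC minus MPP and 0.13 for ST-HSC minus MPP. The median SD of tested members within a population was 0.24 in LT-HSC, 0.19 in ST-HSC and 0.17 in MPP, so typical differences were of the size of the spread between arrays.

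**Figure D4:**
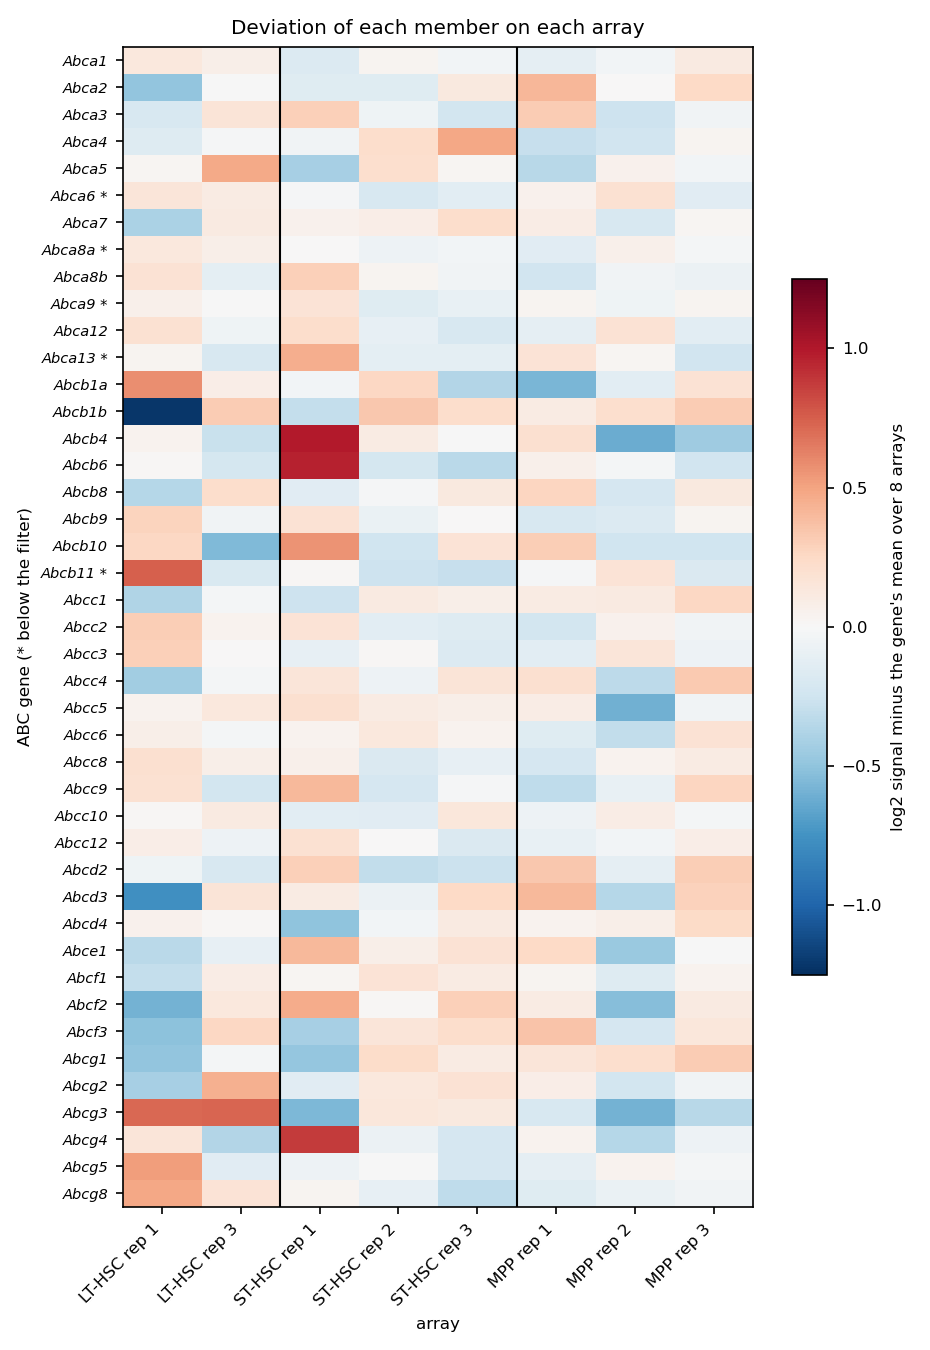
Log2 signal of each of the 43 ABC genes (rows) on each array (columns) minus that gene's mean over 8 arrays; red is above and blue below the gene's own mean, and asterisks mark the 5 genes below the filter. The strongest cells lie in LT-HSC replicate 1 and ST-HSC replicate 1, and Abcg3 is red in both LT-HSC columns.

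In 5 of 38 tested members replicate 1 was the highest array of every population, a share of 13.2% beside 4.89% of all tested genes. They were Abcb4, Abcb6, Abcb10, Abcd2 and Abcg4. The markers of several other cell types moved the same way. Relative to all arrays, the 19 tested granulocyte and monocyte genes averaged 0.73 in LT-HSC replicate 1, 1.05 in ST-HSC replicate 1 and 0.57 in MPP replicate 1, and -0.82 to -0.22 on the other arrays. The 12 tested erythroid genes, which lack the globins, averaged 0.11, 1.02 and 0.43 on those replicate 1 arrays and -0.68 to 0.03 elsewhere. For the 14 stroma and endothelium genes the values were 0.11, 1.04 and 0.16, against -0.41 to -0.20 elsewhere. The part of such cells in the 5 transporter patterns was not tested, and in these bulk samples fewer cells of a type cannot be told apart from less RNA per cell.

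In the other direction, replicate 1 was the lowest array of every population for 5 of 38 members, 13.2% beside 10.6% of all genes. These were Abca4, Abca5, Abcb1b, Abcc1 and Abcg1, a share near that of all genes, and for Abcc1 the first 2 MPP arrays were nearly equal. Macrophage and B cell genes were instead highest on the replicate 1 array of each population. On those 3 arrays macrophage genes averaged 0.06, 0.49 and 0.18, against -0.25 to 0.02 elsewhere. B cell genes averaged 0.33, 0.25 and 0.04, against -0.25 to 0.04 elsewhere. Megakaryocyte and platelet genes averaged -0.11, 0.89 and -0.46, against -0.63 to 0.31 elsewhere. T and NK cell genes, by contrast, differed little between arrays, from -0.10 to 0.11. Markers of HSC identity averaged 0.40 and 0.71 in LT-HSC, -0.22 to 0.20 in ST-HSC and -0.44 to -0.35 in MPP. Of these markers 8 of 21 were called higher in LT-HSC than in MPP, beside 0.119% of all genes. Slamf1 was among them, and its product CD150 was used in the gates, so that call is no separate check of identity.

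**Figure D5:**
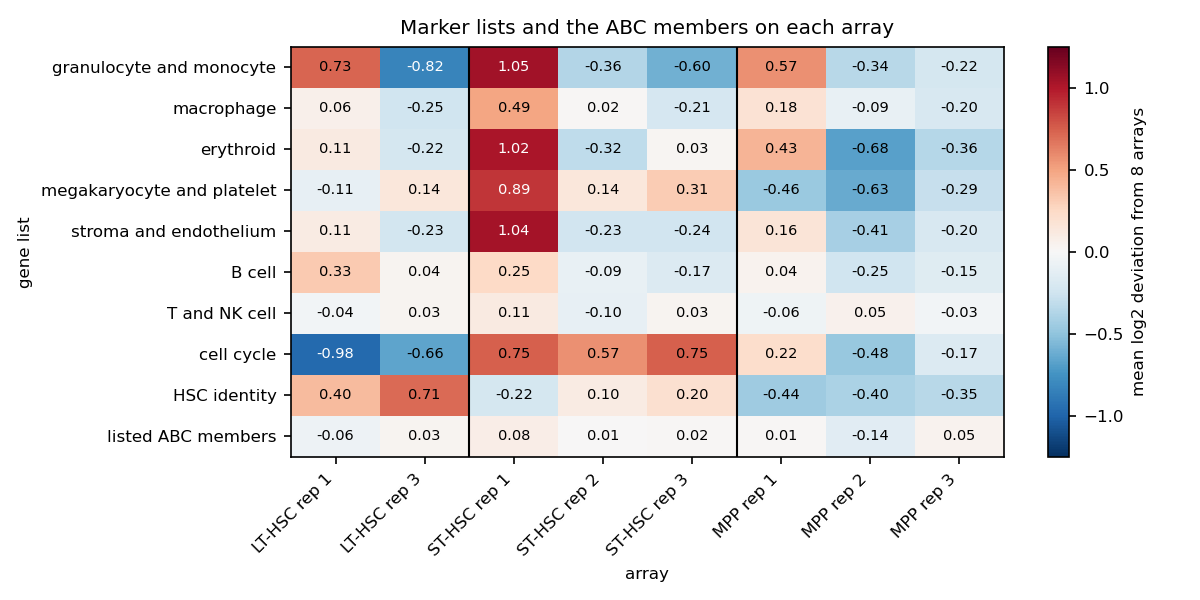
Mean deviation (log2 units, printed in each cell) of the tested genes of 9 marker lists and of the ABC members from their means over 8 arrays, by array (columns). The ABC members stay between -0.14 and 0.08, while granulocyte, erythroid and stroma lists are highest on ST-HSC replicate 1, at 1.05, 1.02 and 1.04.

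RefSeq start regions were at hand for 33 of the 43 members, with 40 windows in all, since some genes have several starts; Abcg2 has 3. Letters were searched on both strands and compared with all 32851 windows of that length. The GC box GGGCGG occurred in 52.5% of the members' windows and in 35.7% of all windows, and the CCAAT box in 32.5% and 37.4%. TATAAA was found in 17.5% and 13.6%, the GATA motif GATAAG in 12.5% and 7.44%, and the RUNX motif TGTGGT in 15.0% and 16.8%. The interferon-stimulated element, GAAA repeated after a gap of 2 bases, occurred in 0 of 40 member windows and 3.44% of all windows. The liver X receptor element, AGGTCA repeated after a gap of 4 bases, occurred in 0 of 40 and in 0.0152% of all. Some member windows overlap, so single sites can be counted more than once. The windows of Abcg5 and Abcg8 share 209 bases with the same TATAAA and GATAAG sites, and the windows of Abcf2 also overlap. These are counts of letters and were tied to no signal.

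In 7 lists of pathway partners and regulators, 0 genes were called in either direction in any comparison, beside the shares of all genes given above. At an unadjusted p under 0.05 several lists stood above the share of all genes and others below it. Sterol genes were at 18.5% (5 of 27, beside 10.6%) in LT-HSC minus MPP and 14.8% (beside 6.89%) in ST-HSC minus MPP. Glutathione genes were at 21.7% (5 of 23) in ST-HSC minus MPP and 17.4% in both comparisons of LT-HSC. Heme and mitochondrial iron genes were at 17.4% (beside 11.1%) in LT-HSC minus ST-HSC and 0% in ST-HSC minus MPP. In LT-HSC minus MPP xenobiotic regulators were at 15.8% and peptide loading genes at 14.3%. Both were at 0% in LT-HSC minus ST-HSC. Sterol efflux and liver X receptor genes (27 tested) had medians of -0.02 for LT-HSC minus ST-HSC, -0.20 for LT-HSC minus MPP and -0.12 for ST-HSC minus MPP. The gene with their highest probe set signal, Npc2, the lysosomal cholesterol carrier, averaged 8.89 in LT-HSC, 9.21 in ST-HSC and 9.34 in MPP (LT-HSC minus MPP -0.44, limma adjusted p = 0.452). Regulators of efflux pumps and xenobiotic responses (19 tested) had medians of -0.04, -0.12 and -0.13, with the membrane-cytoskeleton linker Msn at -0.21 in LT-HSC minus MPP (limma adjusted p = 0.702).

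Glutathione pathway genes (23 tested), which feed the conjugates that C pumps export, had medians of -0.10 for LT-HSC minus ST-HSC and -0.15 for LT-HSC minus MPP, with the peroxidase Gpx1 at -0.11 in LT-HSC minus MPP (limma adjusted p = 0.797). For the 23 heme and mitochondrial iron genes, which share Alas2 with the erythroid markers, the medians were -0.21 and -0.16, and the chaperone Hspa9 stood at -0.26 in LT-HSC minus ST-HSC (limma adjusted p = 0.635). The 24 peroxisomal genes had medians of -0.15 and -0.17, and catalase, Cat, was at -0.44 in LT-HSC minus MPP (adjusted p = 0.541).

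Ribosome recycling and initiation genes were alike in sign. In LT-HSC minus ST-HSC 0 of 25 had a positive difference, with a median of -0.29 beside -0.02 over all genes, and 1 of 25 was positive in LT-HSC minus MPP, with a median of -0.24 beside -0.06. The share of all genes with a positive difference was not counted. The list was not examined without LT-HSC replicate 1, an array that stood apart. At an unadjusted p under 0.05 they numbered 5 of 25 against ST-HSC, or 20.0% beside 11.1% of all genes, and 0 of 25 against MPP, beside 10.6%. Among all genes above the 50th percentile of signal the medians were -0.11 and -0.17. In this list the helicase Eif4a1 was at -0.18 in LT-HSC minus ST-HSC (limma adjusted p = 0.726).

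Peptide loading genes included 2 ABC genes outside the listed members, Tap1 and Tap2, which carry peptides to MHC class I. Tap1 averaged 7.80 in LT-HSC, 7.93 in ST-HSC and 7.93 in MPP, and both were among the genes not called. The 14 genes of that list had medians of -0.18 in both comparisons of LT-HSC, with B2m, the shared light chain, at -0.0082 in LT-HSC minus MPP (limma adjusted p = 0.986). Of 8 further ABC genes on the array, Tap1 and Tap2 among them, 5 were tested and 0 called.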

How the data were processed

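Gene expression in 8 sorted samples was read on microarrays. Per the labels' protocols, RNA was taken with Trizol and amplified and biotin-labelled with Ovation Pico WTA V2 and Encore kits. The authors deposited log2 signals of 33649 probe sets, made by RMA per the submitters' processing notes; scanner files were not used here, and the number of arrays limits the precision. Probe sets with 1 gene symbol in GEO's platform annotation were kept (23521; 1814 had several symbols and 8314 none), and of several per gene the one with the highest mean was taken (1082 genes). Genes with a mean at or above the 25th percentile were fitted with limma 3.58.1 in R 4.3.3, with a mean per population over all 8 arrays, and p-values were adjusted by Benjamini-Hochberg over 17576 genes at a threshold of 0.05. The fit was tested on simulated data. Abcg2 was also tested by exact permutation.

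The members and lists were chosen with earlier results of these data known. All 43 members are named; every array is given for the efflux pumps, for members with an unadjusted p under 0.05 and for the member of each subfamily with the highest probe set signal, and of the other lists the gene with the highest signal. Values of every array for further members, such as Abcg1, Abcg5 and Abcb10, were added after the values were seen. Alternatives covered scaling, filters, array weights, the replicate number as a block and omitted arrays. Deviations of same-numbered ST-HSC and MPP arrays correlated at 0.15, 0.23 and 0.21, and those of differently numbered ones at -0.28 to 0.07. As deviations are taken from each population's mean, these values are not independent. They are weak and do not establish a pairing, and the labels give none. LT-HSC shares only 2 numbers with each, and its pairing was not decided. Start regions came from RefSeq (GRCm38.p6) and were aligned with Biopython 1.88.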

Additional observations from a re-analysis of the deposited data

How the results depend on the processing

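The count of called members stayed 0 in ST-HSC minus MPP under every alternative run. With the replicate block 1 member, Abcg3, was called in LT-HSC minus MPP (1.12, limma adjusted p = 0.0457) and 1, again Abcg3, in the F test; quantile normalization also called 1 in the F test, Abcg3. Leaving out 1 array gave 0 to 1 called members in LT-HSC minus ST-HSC, in LT-HSC minus MPP and in the F test, namely Abcb1b without LT-HSC replicate 3 and Abcg3 without ST-HSC replicate 1; the lone LT-HSC array is then assumed to vary like the other groups. Omitting all arrays numbered 1 turned Abcb1b to 0.033 in LT-HSC minus ST-HSC, 0.051 in LT-HSC minus MPP and 0.019 in ST-HSC minus MPP, Abcg2 to 0.29 in LT-HSC minus ST-HSC, and Abcb1a to -0.080 in ST-HSC minus MPP. Omitting both arrays that stood apart, an alternative chosen after seeing the data, turned Abcb1b to 0.033, 0.10 and 0.071 in the same order of comparisons and Abcg2 to 0.29 in LT-HSC minus ST-HSC, and left the Abcg3 LT-HSC minus MPP difference at 1.11 (limma adjusted p = 0.1). Quantile normalization turned Abcg2 to 0.11 in LT-HSC minus ST-HSC, median centring turned it to -0.043 in LT-HSC minus MPP, and array weights turned Abcb1a to -0.0081 in ST-HSC minus MPP. Leaving out single arrays, LT-HSC minus ST-HSC ran from -1.30 to 0.23 for Abcb1b and from -0.47 to 0.39 for Abcg2, LT-HSC minus MPP from -1.42 to 0.10 for Abcb1b and from -0.35 to 0.51 for Abcg2, and ST-HSC minus MPP from -0.072 to 0.30 for Abcb1a and from -0.25 to 0.071 for Abcb1b. The cause was not tested. Over all genes, 164 were called in LT-HSC minus ST-HSC, 473 with the block, 17 to 825 without single arrays and 0 by limma with both arrays that stood apart omitted, where 1348 had an unadjusted p under 0.05; 22 in LT-HSC minus MPP, 157 with the block, 6 to 615 without single arrays and 22 with both omitted; and 34 in ST-HSC minus MPP, 267 with the block, 525 with array weights, 1 with median centring, 1 to 71 without single arrays and 78 with both omitted.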
